A study of Homo sapiens with 24 samples.

Results

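The genes described here were 36 genes of DNA repair and of the DNA damage checkpoint, chosen by name out of the 60675 genes counted in each library, and all 36 were expressed above the filter on low counts in both cell lines. RNA sequencing was performed on 2 human prostate cancer cell lines, LNCaP:C42, a castration-resistant derivative of LNCaP, and 22Rv1, a line derived from a prostate cancer xenograft. Each line received either a pool of small interfering RNAs against METTL3 (siMETTL3), the catalytic subunit of the enzyme that methylates adenosine in messenger RNA, or a non-targeting control pool (siSCR). Each was then treated for 72 h with ethanol vehicle or with 1 nM R1881, a synthetic androgen, which gave 8 groups of 3 libraries. All cells, the vehicle controls included, were grown in phenol red-free medium with charcoal-stripped serum, which is low in steroids, and all were transfected. Both siRNAs were pools, and each background is represented by 1 cell line, so that a difference between LNCaP:C42 and 22Rv1 is a difference between these lines only. The labels number the replicates but do not say that they came from separate cultures, and the p-values therefore measure the spread between these libraries, which may be technical.

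Homologous recombination repairs a DNA double-strand break by copying the sister chromatid. In it, BRCA1 with its partner BARD1, PALB2 and BRCA2 assemble the recombinase filament after EXO1 and other nucleases have resected the ends, with help from the recombination mediators RAD51C, XRCC2 and XRCC3, the translocases RAD54L and RAD54B, and the helicases BRIP1 and BLM. The Fanconi anaemia pathway unhooks crosslinks between the strands, the kinases ATM, ATR, CHEK1 and CHEK2 halt the cell cycle at damage, and the non-homologous end joining factors XRCC4, XRCC5, XRCC6, LIG4 and PRKDC rejoin ends without a template. Many recombination and Fanconi genes are transcribed mainly in cells that are preparing for or passing through S phase, through E2F transcription factors. In prostate cancer, DNA repair is of interest because tumours with defects in BRCA1, BRCA2 or ATM can respond to inhibitors of PARP1 and PARP2.

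Promoter sequences were available from RefSeq (GRCh38.p14) for 31 of the 36 genes, covering 250 bases before to 50 bases after the start of each gene. The entries for FANCI, NBN, PRKDC, RAD54B and XRCC5 were missing. An E2F-type motif, searched on both strands as TTTGGCGC, TTTCCCGC, TTTCGCGC or TTTGCCGC, was found in 8 of the 31 promoters (25.8%), against 3.33% of all 27305 promoters in the table. The cell cycle homology element TTTGAA was found in 4 of the 31 (12.9%, against 15.4% of all promoters) and the CCAAT box in 16 (51.6%, against 35.7%), and no motif contained the letters of another. The 8 genes with an E2F-type motif were EXO1, FANCA, FANCC, FANCD2, MSH6, PMS2, XRCC2 and XRCC6. The promoters of BARD1, RAD54L, BRCA1, BRCA2, XRCC3 and FANCG, also called lower with R1881 in LNCaP:C42, held no such motif. XRCC6 held the motif and did not pass that test. The windows of 6 genes are shown (5′ to 3′ on the strand of the gene, motif in capitals) because they span the outcomes described later, the first 3 from genes that were called lower with R1881 in LNCaP:C42, the next 2 from genes that were lower by a smaller change and the last from a gene that did not pass the test.
EXO1 (chr1:241848197-241848226, plus strand): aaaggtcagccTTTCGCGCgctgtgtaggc
FANCA (chr16:89816801-89816830, minus strand): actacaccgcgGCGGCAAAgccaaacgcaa
XRCC2 (chr7:152676102-152676131, minus strand): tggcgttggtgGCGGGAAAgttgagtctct
FANCD2 (chr3:10026424-10026453, plus strand): cgtcgggcctgGCGGGAAAgtcgaaaacta
PMS2 (chr7:6009131-6009160, minus strand): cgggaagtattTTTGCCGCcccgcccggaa
MSH6 (chr2:47783137-47783166, plus strand): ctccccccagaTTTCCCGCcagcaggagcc
The motif began at position +4 from the RefSeq gene start in EXO1, +21 in XRCC2 and −172 in FANCA. The windows of EXO1, XRCC2, FANCD2 and MSH6 lay inside the gene spans that the files give, and those of FANCA and PMS2 upstream of them. A match is a description of the letters, not evidence of a bound site. The background was all promoters in the table, not matched for base composition or expression, and the part of these in the shares was not tested.

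Library depth was 15716224 to 21306019 fragments assigned to genes (median 17671721.5), of which the 36 genes took 41826 to 68007. Levels are given as CPM, the counts of a gene scaled to a common library size, after normalisation of the libraries by the trimmed mean of M values (TMM). METTL3 was lower in every siMETTL3 library than in every siSCR library of the same line and treatment. In LNCaP:C42 it measured 28.8 ± 2.35 CPM with siSCR against 19 ± 1.37 CPM with siMETTL3 (mean ± SD, n = 3) under vehicle. Under R1881 these were 33.4 ± 2.67 and 22.4 ± 0.370 CPM. In 22Rv1 the siSCR and siMETTL3 levels were 46.3 ± 0.691 and 24.9 ± 0.722 CPM under vehicle and 50.4 ± 1.46 and 22.4 ± 2.01 CPM under R1881. The exact two-sided permutation p was 0.1 in each of these comparisons, the smallest that 3 against 3 libraries allow. The androgen-induced gene FKBP5 rose from 85.1 to 964 CPM in LNCaP:C42 siSCR cells and from 183 to 1850.4 CPM in 22Rv1, whereas KLK3, which encodes prostate-specific antigen, rose from 19.7 to 335 CPM in LNCaP:C42 and measured 6.61 and 6.57 CPM in 22Rv1. The luminal prostate markers KRT8, KRT18, HOXB13 and FOLH1 were present in both lines. Of 4 markers of other cell types, PECAM1 and DCN were at or near 0, PTPRC reached at most 1.62 CPM, and COL1A1 measured 15.1 to 71.9 CPM.

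Several libraries stood apart from their group, and results that rest on them are given with and without them. The LNCaP:C42 siSCR R1881 replicate 1 correlated better with the siMETTL3 R1881 libraries (mean r = 0.9930 across genes) than with its own group (0.9902), and it held the lowest level of its group for 32 of the 36 genes. The LNCaP:C42 siSCR vehicle replicate 3 held the highest level of its group for 32 of the 36. The summed level of the 36 genes was 2479 CPM in the first of these libraries against 3058 and 3069 CPM in the other R1881 replicates, and 3779 CPM in the second against 3284 and 3252 CPM in the other vehicle replicates. Another 4 libraries, LNCaP:C42 siMETTL3 vehicle replicates 1 and 3, 22Rv1 siSCR vehicle replicate 1 and 22Rv1 siMETTL3 vehicle replicate 1, also correlated better with the other siRNA than with their own, although METTL3 followed the labels in all 24 libraries.

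The 36 genes differed widely in level. Per kilobase of exon (RPKM, a scale on which genes can be compared), the highest in LNCaP:C42 siSCR vehicle cells were XRCC6 and XRCC5, the Ku subunits that bind broken ends, UBE2T, the ubiquitin-conjugating enzyme of the Fanconi pathway, and PARP1, which senses strand breaks. XRCC6 stood at 145 ± 3.91 RPKM, above XRCC5 at 73.4 ± 7.12, UBE2T at 71.8 ± 8.59 and PARP1 at 69.4 ± 2.88, the last 3 of which did not differ beyond their SD. BARD1 ranked 5 at 29.8 ± 2.09 RPKM, and BLM was among the lowest at 2.35 ± 0.294 RPKM. RAD54B was listed at 1.29 ± 0.217 RPKM, but it shares 55.1% of its exon bases with overlapping genes, where fragments could not be assigned, so its level per length may be understated and is not ranked. In 22Rv1 the same 4 genes led, XRCC6 at 161 ± 9.08, UBE2T at 68.3 ± 13.3, PARP1 at 58.6 ± 3.74 and XRCC5 at 57.5 ± 7.44 RPKM, whereas BARD1 stood at 2.80 ± 0.602 RPKM.

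The effect of androgen was examined first in LNCaP:C42 siSCR cells. R1881 lowered 10 of the 36 genes, BARD1, EXO1, RAD54L, FANCA, XRCC2, BRCA2, BRCA1, XRCC3, FANCG and NBN, and raised none, at an adjusted p under 0.05 and a change of at least 1.5-fold in edgeR's quasi-likelihood test (a gene past both thresholds is termed called). Of all 16435 genes tested in this line, 15.1% were called in either direction and 7.72% were called lower. The median log2 fold change of the 36 genes was −0.41, against −0.03 over all genes, and 28 of the 36 estimates were below 0. Without the fold threshold 16 were lower, where 12.1% of all genes were lower, and 1, LIG4, was higher. In bulk RNA, a lower level in each cell and fewer cells that express the gene cannot be told apart.

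The recombination genes carried most of the calls, with 7 of 12 called lower and a median log2 fold change of −0.68. BARD1 measured 173, 174 and 195 CPM in the 3 vehicle libraries and 67.1, 98.7 and 90.2 CPM in the 3 R1881 libraries. The groups did not overlap, and replicate 1 was the lowest of the R1881 libraries. BARD1, at chromosome 2:214725646-214809711 on the minus strand (GRCh38), fell 2.13-fold (log2 fold change −1.09 ± 0.14 (SE), adjusted p = 2.68e-05). EXO1 measured 29.7, 30.2 and 34.7 CPM in the 3 vehicle libraries and 13.1, 21.5 and 18.8 CPM in the 3 R1881 libraries, again without overlap and with replicate 1 lowest. EXO1, the exonuclease whose promoter window is shown with the sequences, fell 1.78-fold (−0.83 ± 0.17, adjusted p = 0.00204). RAD54L measured 40.8, 37.7 and 42.8 CPM in the 3 vehicle libraries and 20.6, 22.2 and 26.2 CPM in the 3 R1881 libraries, with every R1881 library below every vehicle library. RAD54L, a translocase that remodels DNA during strand exchange, fell 1.77-fold (−0.82 ± 0.13, adjusted p = 0.000342).

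BRCA1, the scaffold that recruits the other recombination factors, was called as well. BRCA1 measured 70.3, 70.9 and 85.3 CPM in the 3 vehicle libraries and 31.9, 55.1 and 53.9 CPM in the 3 R1881 libraries, without overlap, and the log2 fold change was −0.69 ± 0.19 (adjusted p = 0.0153). BRCA2 measured 91.6, 92.5 and 129 CPM in the 3 vehicle libraries and 40.3, 72.6 and 75.5 CPM in the 3 R1881 libraries. BRCA2, which mediates assembly of the recombinase filament, had the widest spread of these genes and the weakest call (−0.74 ± 0.25, adjusted p = 0.039). Among the mediators, XRCC2 (−0.78 ± 0.21) and XRCC3 (−0.67 ± 0.14) fell, and RAD51C (−0.21 ± 0.12) did not pass the test. PALB2, the bridge between BRCA1 and BRCA2, stood at −0.05 ± 0.15, and the helicases BRIP1 (−0.52 ± 0.21) and BLM (−0.42 ± 0.22) and the translocase RAD54B (0.20 ± 0.22) did not pass either.

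In the Fanconi group 2 of 8 genes were called lower, with a group median of −0.43. FANCA measured 40.9, 39.7 and 44 CPM in the 3 vehicle libraries and 18.7, 26.3 and 26.7 CPM in the 3 R1881 libraries. FANCA, a subunit of the core ubiquitin ligase, fell 1.75-fold (−0.80 ± 0.17, adjusted p = 0.00241). FANCG measured 61.9, 57.6 and 52.2 CPM in the 3 vehicle libraries and 38.5, 36.8 and 36.6 CPM in the 3 R1881 libraries. FANCG, a core subunit that binds FANCA, fell 1.54-fold (−0.62 ± 0.12, adjusted p = 0.00108), and in both genes all R1881 libraries were below all vehicle libraries. FANCD2, the substrate of the core ligase, and the core subunit FANCC had an adjusted p under 0.05 below the fold threshold (−0.55 and −0.43), while FANCI (−0.43), FANCM (−0.20), UBE2T (−0.18) and FANCE (0.29) did not pass.

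In the end joining group, which here includes NBN and RAD50 of the MRN complex that tethers broken ends, 1 of 7 genes was called and the median was 0.01. NBN measured 68.8, 66 and 76.3 CPM in the 3 vehicle libraries and 34.8, 54.1 and 49.9 CPM in the 3 R1881 libraries. NBN, which recruits ATM to breaks, was lower in every R1881 library and fell 1.53-fold (−0.61 ± 0.15, adjusted p = 0.00869), whereas its partner RAD50 stood at 0.14 ± 0.15. LIG4, the ligase of end joining, was higher at 0.47 ± 0.16 (adjusted p = 0.0435), below the fold threshold, and XRCC4, XRCC5, XRCC6 and PRKDC lay between −0.11 and 0.04 without passing the test. None of the 5 checkpoint genes was called by edgeR, with 2 at an unadjusted p under 0.05, and none by DESeq2. Of these, the effector kinases CHEK2 (−0.48) and CHEK1 (−0.45) had an adjusted p under 0.05, and the sensor kinases ATM (0.06) and ATR (0.20) and the adaptor TP53BP1 (−0.07) did not. None of the 4 mismatch repair and PARP genes was called by either tool (2 at an unadjusted p under 0.05 in edgeR), although PARP1 (−0.43) and the mismatch repair endonuclease subunit PMS2 (−0.40) had an adjusted p under 0.05. Over all 16435 genes 5937 were at an unadjusted p under 0.05 in edgeR.

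**Figure D1:**
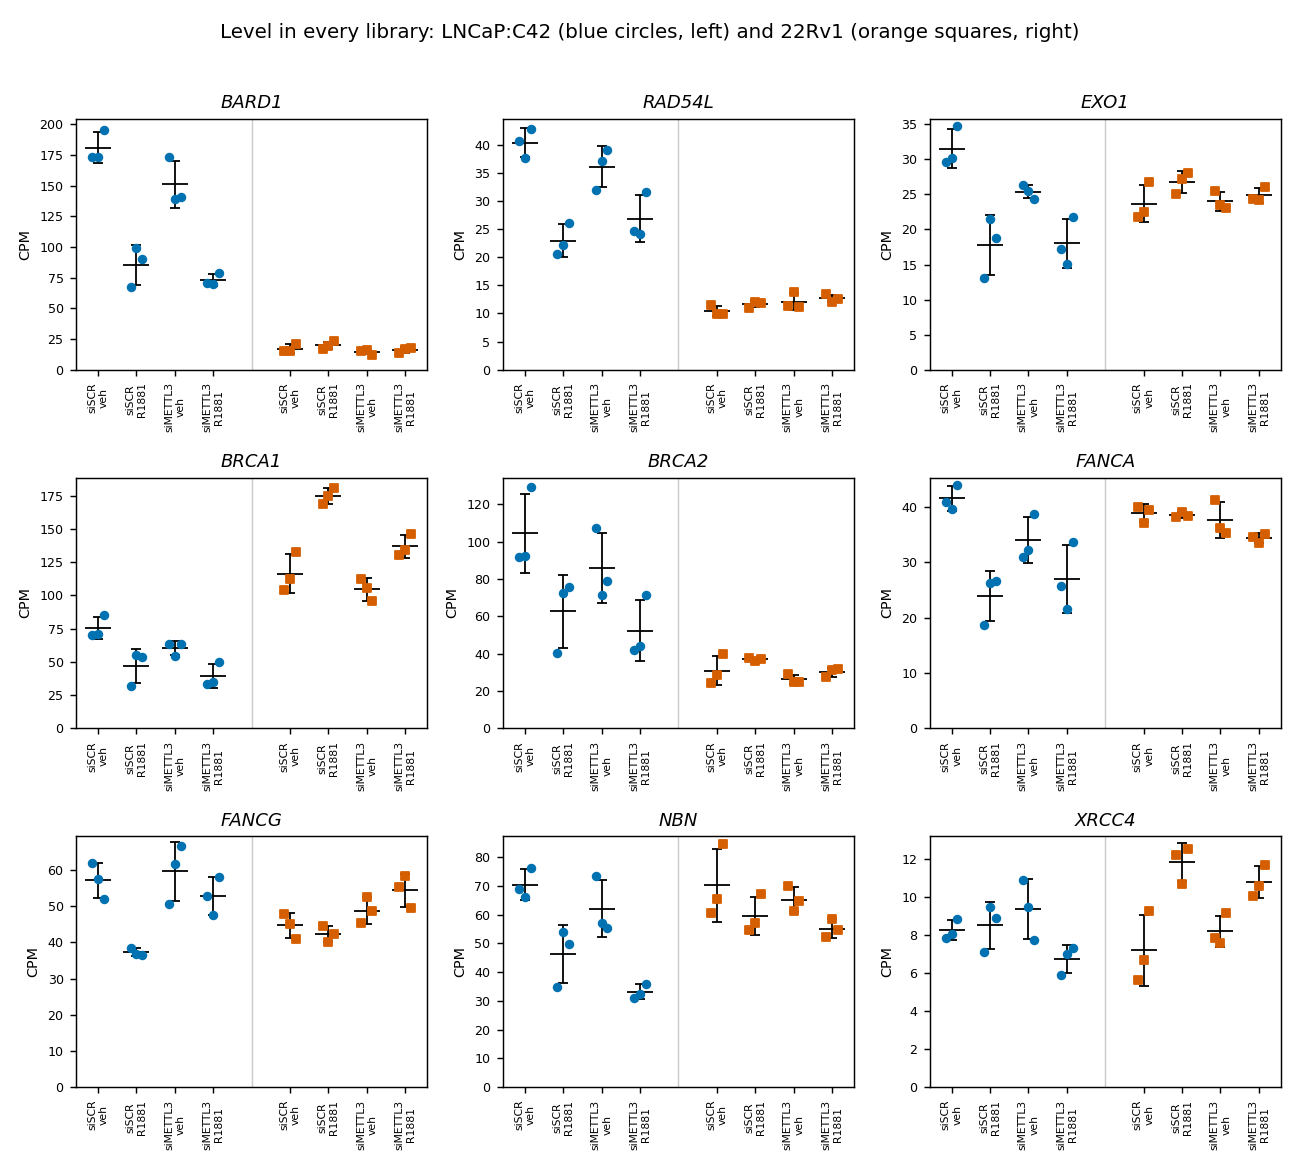
Levels of 9 genes in CPM (y axis) in each of the 8 groups (x axis), with 1 point per library and the mean ± SD of 3 libraries. In LNCaP:C42 siSCR cells BARD1 falls from between 173 and 195 CPM with vehicle to between 67.1 and 98.7 CPM with R1881, and in 22Rv1 its level is far lower in every group.

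The size of this set of calls depended on the 2 libraries that stood apart. Without the siSCR R1881 replicate 1, 6 genes were called lower (BARD1, EXO1, FANCA, FANCG, RAD54L and XRCC3) and the median was −0.23, and without the siSCR vehicle replicate 3 the same 6 were called with a median of −0.31. Over all genes 2464 of 16845 were called in the first of these fits, 1244 of them lower. In the second 2375 of 16851 were called, 1206 of them lower. With both left out, a setting chosen after seeing the data, 5 were called lower, BARD1 (−0.87), XRCC3 (−0.78), FANCG (−0.70), RAD54L (−0.69) and FANCA (−0.60), 2 were called higher, LIG4 (0.63) and RAD54B (0.59), and the median was −0.14. With both out, 2577 of all 16782 genes were called, 1364 of them lower, so the 7 calls among the 36 lay nearer the share over all genes than the 10 did. BRCA1, BRCA2, XRCC2 and NBN lost the call when either library was left out. Without siSCR vehicle replicate 1, BRCA2, FANCG and XRCC3 lost it, without siSCR vehicle replicate 2 only BRCA2 did, and DESeq2 called 9 of the 10, all but BRCA2. The mitochondrial share of counts was 8.02 to 8.48% with vehicle and 7.08 to 9.73% with R1881. The summed level of these 4 luminal markers was 2256 to 2375 and 1991 to 2401 CPM, that of the 4 other markers 42.7 to 63.5 and 38.6 to 48.2 CPM, and without COL1A1 1.18 to 1.62 and 0 to 0.0592 CPM, with PECAM1 and DCN at or near 0. The part of these measures in the result was not tested. XRCC3, RAD54L and FANCA share 76.7, 25.1 and 23.6% of their exon bases with overlapping genes, and fragments there could not be assigned by the unstranded counting, so their levels are uncertain.

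In LNCaP:C42 siMETTL3 cells R1881 lowered 4 of the 36 genes, BARD1, NBN, BRIP1 and BRCA1, against 10.6% of all genes called and 5.54% called lower. BARD1 measured 173, 139 and 141 CPM with vehicle and 70.2, 69.7 and 79 CPM with R1881, and its log2 fold change was −1.03 ± 0.14 (adjusted p = 5.97e-05). NBN measured 73.5, 57.1 and 55.5 and 31.1, 32.5 and 36 CPM (−0.89 ± 0.16, adjusted p = 0.000857). Neither gene's groups overlapped. BRIP1, the helicase that binds BRCA1, had a log2 fold change of −0.70 ± 0.21, and BRCA1 of −0.61 ± 0.19. PMS2 (−0.42) and RAD54L (−0.41) were lower and FANCE (0.53), a core Fanconi subunit, was higher at an adjusted p under 0.05 below the fold threshold. The median was −0.30. The luminal sum was 2069.9 to 2363 CPM against 2435 to 2631 CPM with vehicle and the mitochondrial share 6.46 to 7.05% against 6.89 to 9.60%, and their part was not tested. Left out in turn, siMETTL3 vehicle replicates 1 and 3 and siMETTL3 R1881 replicates 1 and 2 each reduced the calls to BARD1 and NBN, while leaving out siMETTL3 R1881 replicate 3, which held the highest level of its group for 31 of the 36 genes, gave 9. The calls over all genes in these fits were 1423 to 1736 of 16818 to 16876 tested.

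Whether the response to R1881 differed between siSCR and siMETTL3 cells was tested as an interaction. No member differed in edgeR (0% of all genes passed), where the lowest adjusted p of the 36 was 0.358, and none in DESeq2. At an unadjusted p under 0.05 were 3 of the 36 in edgeR and 2 in DESeq2, against 2037 and 2052 of all 16435 genes. The largest estimates were XRCC4 (−0.50), XRCC3 (0.49), FANCA (0.49) and FANCG (0.46). A gene called with 1 siRNA and not with the other is therefore not shown to respond differently.

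**Figure D2:**
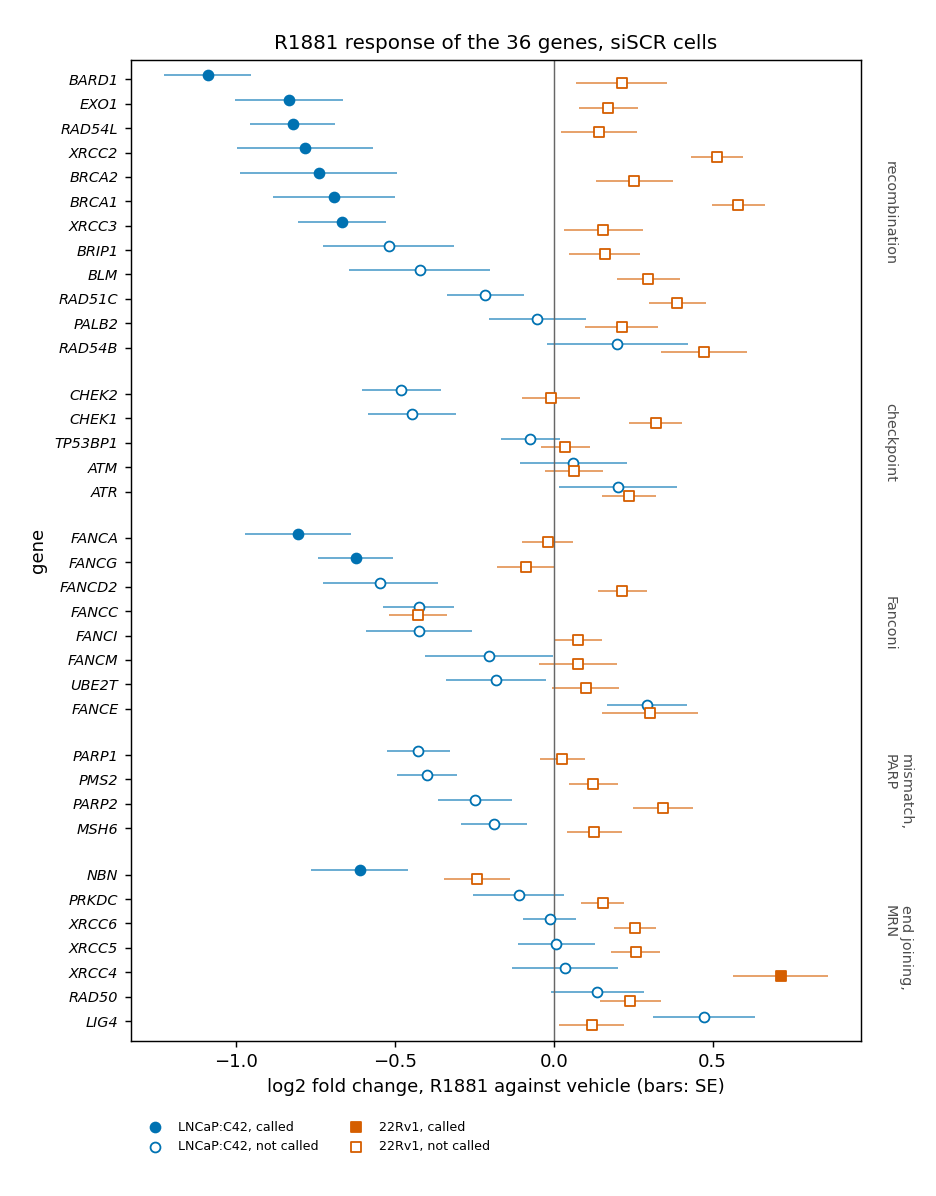
Log2 fold change with R1881 against vehicle in siSCR cells (x axis, bars SE) for the 36 genes (y axis, ordered by role) in LNCaP:C42 and 22Rv1, filled where called. In LNCaP:C42 10 genes are called lower, from −0.61 (NBN) to −1.09 (BARD1), and in 22Rv1 1 gene, XRCC4, is called higher at 0.71.

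In 22Rv1 the response of the same genes to R1881 was small and mostly upward. In siSCR cells 1 of 36 genes was called, XRCC4, which was higher, against 13.8% of all 17865 genes called. XRCC4, the scaffold of LIG4 in end joining, measured 5.62, 6.70 and 9.28 CPM with vehicle and 12.2, 10.7 and 12.6 CPM with R1881. Every R1881 library was above every vehicle library, at a low level, and the gene rose 1.64-fold (log2 fold change 0.71 ± 0.15, adjusted p = 0.000843). BRCA1 measured 104, 112 and 133 CPM with vehicle and 168, 175 and 181 CPM with R1881, also without overlap, and at 0.58 ± 0.08 (adjusted p = 1.26e-05) it lay just under the fold threshold. Without that threshold 12 genes were higher, where 16.6% of all genes were, among them the recombination genes BRCA1 (0.58), XRCC2 (0.51), RAD54B (0.47), RAD51C (0.39) and BLM (0.30), the kinases CHEK1 (0.32) and ATR (0.24), PARP2 (0.34), and the Ku subunits XRCC5 (0.26) and XRCC6 (0.26). FANCC was lower (−0.43), and 31 of the 36 estimates were above 0, with a median of 0.17 against 0.00 over all genes.

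Leaving out single 22Rv1 libraries moved the count between 0 (without siSCR vehicle replicate 1) and 4 (BRCA1, RAD54B, XRCC2 and XRCC4, without siSCR vehicle replicate 3), and without siSCR R1881 replicate 1 or 2 it was 2, BRCA1 and XRCC4. With all libraries 13.8% of all genes were called. The share in the fits with a library left out is not given, so the genes gained there are not read as a result about the 36. The mitochondrial share was 6.12 to 6.89% with vehicle and 4.96 to 5.28% with R1881, the luminal sum 662 to 754 and 779 to 815 CPM, the sum of the 4 other markers 21.9 to 29.3 and 15.2 to 17 CPM and that without COL1A1 0.208 to 0.273 and 0.106 to 0.390 CPM, and their part was not tested. In 22Rv1 siMETTL3 cells none of the 36 genes was called by edgeR or by DESeq2, against 13.5% of all genes. In edgeR 13 of the 36 were at an unadjusted p under 0.05, as were 7542 of all 17865 genes. Without the fold threshold 6 were higher there, XRCC2 (0.47), BRCA1 (0.37), RAD51C (0.33), XRCC6 (0.33), BLM (0.29) and CHEK1 (0.27), where 16.8% of all genes were, and FANCC (−0.36) was lower. The mitochondrial share was 3.93 to 4.24% against 5.04 to 7.45% with vehicle, the luminal sum 822 to 916 CPM against 704 to 778 CPM and the sum of the 4 other markers 15.2 to 15.7 CPM against 27.6 to 29.1 CPM. Without COL1A1 the last sum was 0 to 0.365 CPM against 0.0513 to 0.214 CPM. The part of these measures was not tested. The interaction of siRNA and R1881 in 22Rv1 passed for none of the 36 (0.0168% of all genes), with PRKDC (−0.31) and FANCD2 (−0.32) at an unadjusted p under 0.05 in edgeR and none past the threshold in DESeq2. Over all 17865 genes 1101 were at an unadjusted p under 0.05 in that edgeR test.

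The 2 responses were then compared directly, as the difference of the log2 fold changes with R1881 in siSCR cells of 22Rv1 and LNCaP:C42, at an adjusted p under 0.05. This difference passed for 18 of the 36 genes and was positive, that is higher in 22Rv1, in all 18, against 16.8% of all 19437 genes in either direction and 7.78% in this direction. The recombination group held 9 of the 18 (of 12 genes), mismatch repair and PARP 3 of 4, the Fanconi group 3 of 8, the checkpoint group 2 of 5 and end joining 1 of 7. The largest differences were BARD1 (1.30 ± 0.21, adjusted p = 6.43e-05), XRCC2 (1.30 ± 0.24, adjusted p = 0.000268) and BRCA1 (1.27 ± 0.21, adjusted p = 0.000102). For BRCA1 the changes ran in opposite directions, −0.69 in LNCaP:C42 and 0.58 in 22Rv1, and likewise for XRCC2 (−0.78 and 0.51). For BARD1 the estimates were −1.09 and 0.21, for EXO1 −0.83 and 0.17, and for RAD54L −0.82 and 0.14, the 22Rv1 values not passing the test. ATM, ATR (0.03), RAD50 (0.10), FANCE (0.01) and FANCC had differences near 0, and LIG4 stood at −0.36 ± 0.20 without passing the test. The median of the 36 differences was 0.48 against 0.03 over all genes. The count ranged from 11 to 18 when single libraries were left out, at 13 without LNCaP:C42 siSCR R1881 replicate 1 and 11 without 22Rv1 siSCR R1881 replicate 3. It was 8 without both LNCaP:C42 libraries that stood apart (BARD1, BRCA1, CHEK1, EXO1, FANCG, RAD54L, XRCC2 and XRCC3), a setting chosen after seeing the data. BLM, CHEK2 and XRCC4 lost the call under most of these settings. The share of all genes that passed with libraries left out is not given, so the counts of 8, 11 and 13 cannot be set against it.

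The lines were also compared at each treatment in siSCR cells, which uses the same libraries as the responses. With vehicle 13 of the 36 genes were called, 8 lower and 5 higher in 22Rv1, a smaller share than the 59.2% of all genes called between the lines. BARD1 measured 173, 174 and 195 CPM in LNCaP:C42 and 15.1, 14.7 and 21.2 CPM in 22Rv1. It was 10.6-fold lower in 22Rv1 (−3.41 ± 0.16, adjusted p = 1.34e-16), by far the largest line difference of the 36. RAD54L measured 40.8, 37.7 and 42.8 against 11.5, 9.96 and 9.99 CPM (−1.94 ± 0.12). BRCA2 measured 91.6, 92.5 and 129 against 24.4, 28.8 and 39.7 CPM (−1.75 ± 0.21), and XRCC3 46.7, 40.2 and 38.2 against 17.1, 14.8 and 13.4 CPM (−1.46 ± 0.14). None of these genes overlapped between the lines. Also lower in 22Rv1 were MSH6 (−1.38), which recognises mismatched bases, FANCM (−0.99) and FANCE (−0.92) of the Fanconi pathway and RAD51C (−0.63). The RAD51C call was lost with DESeq2, with RLE size factors, with scaling by library size alone, with a minimum of 10 counts in every library, and without LNCaP:C42 siSCR vehicle replicate 3 or 22Rv1 siSCR vehicle replicate 1.

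Higher in 22Rv1 with vehicle were BLM, ATM, FANCD2, RAD50 and BRCA1. BLM, a helicase that dissolves recombination intermediates, measured 13.9, 14.7 and 17.5 CPM in LNCaP:C42 and 23.9, 24.6 and 30.3 CPM in 22Rv1 (0.77 ± 0.17). ATM measured 49.6, 52.4 and 63.6 against 85.6, 84 and 104 CPM (0.72 ± 0.14). The lines did not overlap for either gene. FANCD2 measured 45.9, 45.6 and 56.4 against 75.1, 75.6 and 90.8 CPM (0.71 ± 0.14), and RAD50 80.4, 80.7 and 102 against 125, 135 and 166 CPM (0.70 ± 0.13), also without overlap. BRCA1 stood at 0.62 ± 0.15, so that BRCA1 and its partner BARD1 differed between the lines in opposite directions. With R1881 17 of the 36 were called, against 60.1% of all genes, 10 higher and 7 lower in 22Rv1. BRCA1 (1.90), BLM (1.49), FANCD2 (1.47) and XRCC2 (1.02) were the most elevated, and BARD1 (−2.11), MSH6 (−1.07) and RAD54L (−0.98) the most reduced. BARD1 measured 67.1, 98.7 and 90.2 CPM in LNCaP:C42 and 17.1, 19.3 and 22.9 CPM in 22Rv1 with R1881, still without overlap. Scaling by library size alone gave 14 higher and 4 lower, and without LNCaP:C42 siSCR R1881 replicate 1 13 genes were called, with PALB2, BRIP1, EXO1, ATM and FANCA no longer among them. BRCA1 lost its vehicle call without 22Rv1 siSCR vehicle replicate 3, XRCC3 its R1881 call without 22Rv1 siSCR R1881 replicate 1 and EXO1 without replicate 3.

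**Figure D3:**
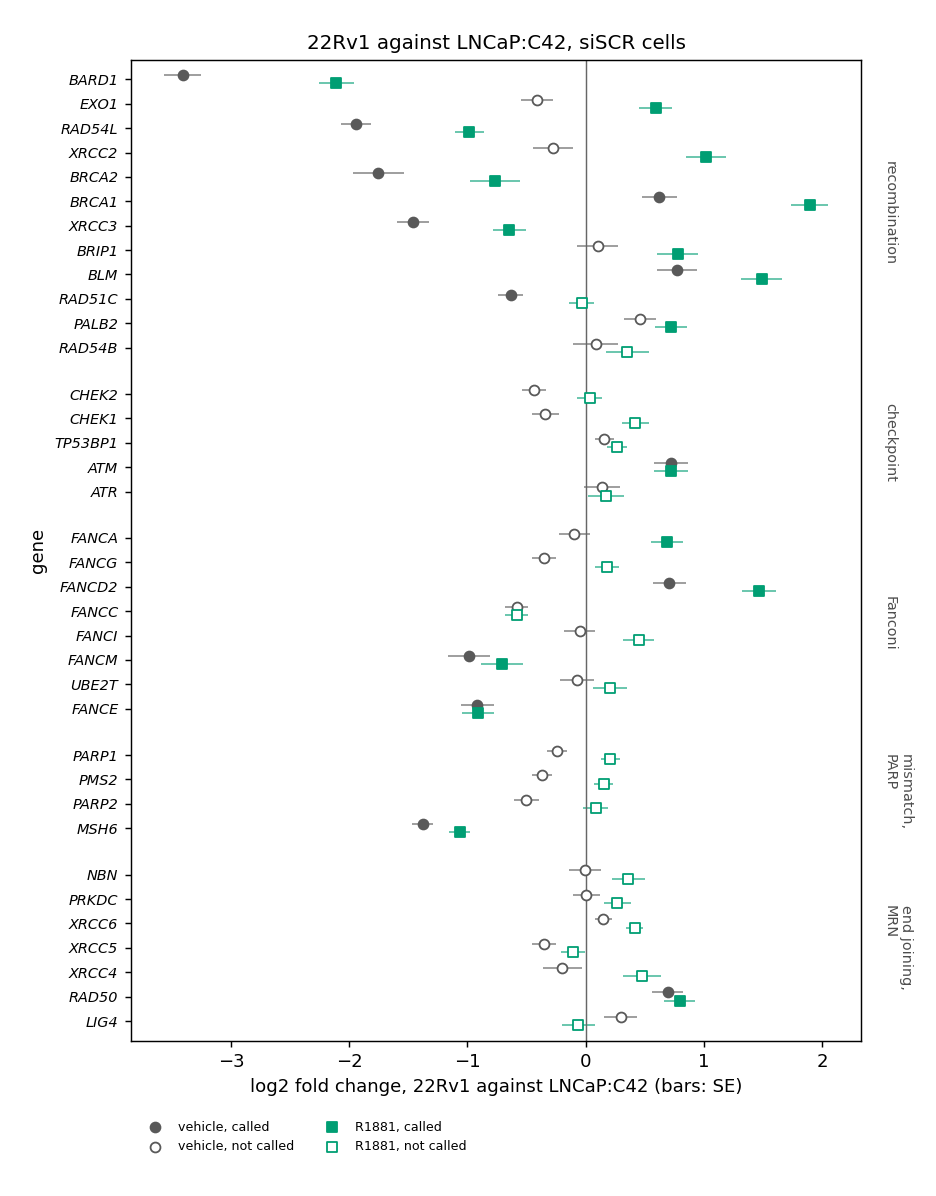
Log2 fold change of 22Rv1 against LNCaP:C42 in siSCR cells (x axis, bars SE) for the 36 genes (y axis, ordered by role), with vehicle (circles) and with R1881 (squares), filled where called. BARD1 lies lowest at −3.41 with vehicle and −2.11 with R1881, and BRCA1 moves from 0.62 to 1.90.

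Depletion of METTL3 left all 36 genes below the call thresholds in each line and treatment. In LNCaP:C42 with vehicle none was called by edgeR (lowest adjusted p 0.211) or by DESeq2, where 1.2% of all genes were. An unadjusted p under 0.05 in edgeR was reached by 4 of the 36, against 2636 of all 16435 genes. Of the 36 estimates 32 were below 0, with a median of −0.18 against 0.00 over all genes, and the lowest were XRCC2 (−0.39), BLM (−0.33) and BRCA1 (−0.33). BARD1 measured 173, 174 and 195 CPM with siSCR and 173, 139 and 141 CPM with siMETTL3 (−0.28 ± 0.13). The groups overlapped, and the difference did not pass the test. In 22Rv1 with vehicle none was called by edgeR or DESeq2, against 0.202% of all genes, and the median was −0.06. There 2 of the 36 were at an unadjusted p under 0.05 in edgeR, against 2604 of all 17865 genes. In both lines the vehicle count stayed at 0 when any single library was left out. These comparisons use the same siSCR libraries as those of R1881, so their estimates are not independent of them. The difference between the lines in this knockdown comparison passed for none of the 36 (0.458% of all genes), with RAD54L (0.37) at an unadjusted p under 0.05 in edgeR and none past the threshold in DESeq2.

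With R1881 in LNCaP:C42 none of the 36 was called by edgeR or DESeq2, where 0.7% of all genes were. The lowest adjusted p in edgeR was 0.0541, for FANCG (0.51). Of the 36, 8 were at an unadjusted p under 0.05 in edgeR, against 4702 of all 16435 genes. This comparison depended on the siSCR R1881 replicate 1. Without it 4 genes were called lower with siMETTL3, NBN (−0.66, adjusted p = 0.0118), BRIP1 (−0.59, 0.0324), ATR (−0.59, 0.0257) and RAD50 (−0.59, 0.014), and the calls over all genes went from 115 to 1497. NBN measured 34.8, 54.1 and 49.9 CPM with siSCR, the first of these being that library, and 31.1, 32.5 and 36 CPM with siMETTL3. The median over the 36 went from −0.24 to −0.37. The mitochondrial share was 6.46 to 7.05% against 7.08 to 9.73% with siSCR and the sum of the 4 other markers 64.7 to 66.2 CPM against 38.6 to 48.2 CPM, neither overlapping. Without COL1A1 that sum was 0 CPM against 0 to 0.0592 CPM and overlapped. The part of these measures was not tested.

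With R1881 in 22Rv1 none of the 36 was called by edgeR or DESeq2, against 3.29% of all genes. An unadjusted p under 0.05 in edgeR was reached by 18 of the 36, against 5712 of all 17865 genes. Below the fold threshold 5 genes were lower with siMETTL3 at an adjusted p under 0.05, where 7.28% of all genes were. They were BRCA1, the damage kinases ATM (−0.31) and ATR (−0.29), and XRCC5 (−0.26) and PRKDC (−0.25), which belong to the end-binding kinase complex of end joining. BRCA1 measured 168, 175 and 181 CPM with siSCR and 130.2, 134 and 146 CPM with siMETTL3, without overlap (−0.37 ± 0.08, adjusted p = 0.00663). FANCG was higher (0.35), 31 of the 36 estimates were below 0 and their median was −0.16 against −0.02 over all genes. The mitochondrial share was 3.93 to 4.24% against 4.96 to 5.28% with siSCR and the luminal sum 822 to 916 CPM against 779 to 815 CPM, neither overlapping, and their part was not tested. Each of the 5 changes was smaller than 1.5-fold.

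**Figure D4:**
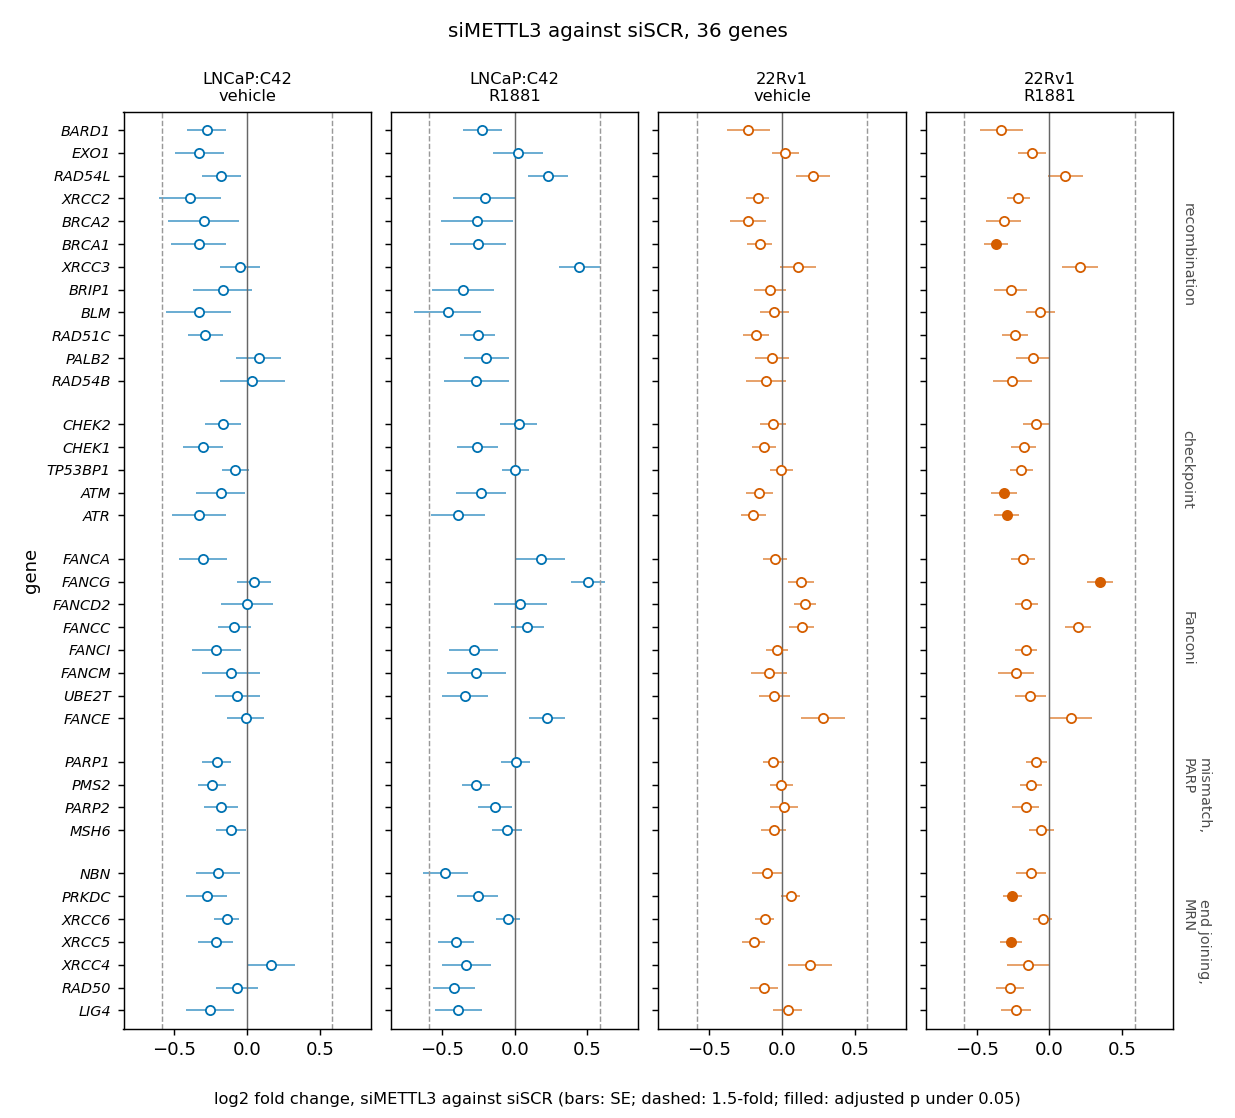
Log2 fold change of siMETTL3 against siSCR (x axis, bars SE) for the 36 genes in 4 panels, LNCaP:C42 and 22Rv1 with vehicle and with R1881, filled at an adjusted p under 0.05, with dashed lines at 1.5-fold. No gene is filled outside the dashed lines, and in 22Rv1 with R1881 the 6 filled points run from −0.37 (BRCA1) to 0.35 (FANCG).

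Other genes of related pathways were examined in the same fits, from lists that share no gene with the 36. In LNCaP:C42 siSCR cells R1881 lowered 14 of 26 DNA replication genes (median −0.61), led by the replicative helicase subunits MCM2 (−0.86), MCM3 (−0.85) and MCM5 (−0.83). Of a further 36 tested repair and checkpoint genes 2 were called, both lower, CLSPN (−0.87), the adaptor through which ATR activates CHEK1, and the helicase RECQL4 (−0.87), with a median of −0.22. Of 24 base and nucleotide excision repair genes 3 were called, all lower, the flap nuclease FEN1 (−0.79), DDB2 (−0.76), which finds ultraviolet damage, and the ligase LIG1 (−0.68), with a median of −0.09. Beside these counts, 15.1% of all genes tested were called and 7.72% were called lower. These genes were measured in the same libraries as the recombination genes, and the part of a change in replication-linked expression in the result for the 36 genes was not tested. Without the siSCR R1881 replicate 1 the replication list held 6 calls, the repair list 2 and the excision list 3, while 2464 of all 16845 genes were called. In 22Rv1 siSCR cells 1 replication gene was called, CDC6 (higher at 0.60, named after its value was seen), the list median being 0.23, and none of the other repair or excision repair genes by edgeR (14 and 11 at an unadjusted p under 0.05) or DESeq2. There 13.8% of all genes were called, and 7617 of 17865 were at an unadjusted p under 0.05 in edgeR. The difference in response between the lines passed for 22 of 26 replication genes, 10 of 38 other repair genes and 4 of 24 excision repair genes (FEN1, DDB2 and, named after their values were seen, UNG and APEX1), all positive, beside 18 of the 36 genes described here. Over all genes 16.8% passed in either direction and 7.78% in this direction.

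**Figure D5:**
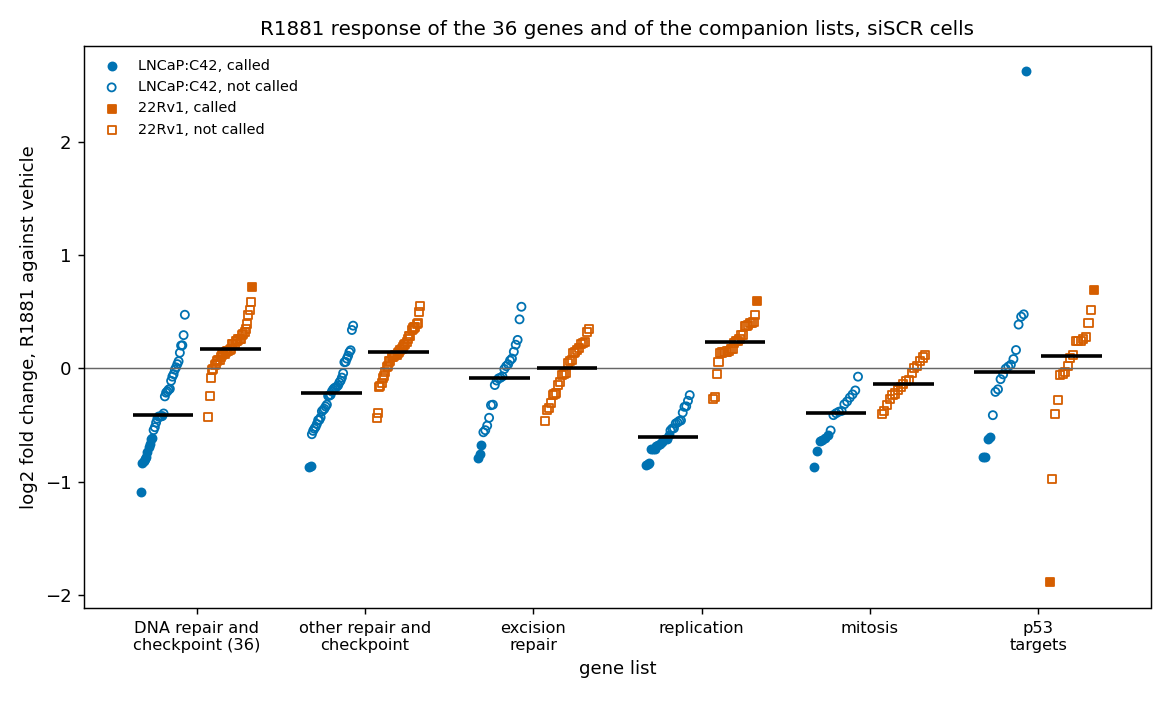
Log2 fold change with R1881 against vehicle in siSCR cells (y axis) of each gene of 6 lists (x axis), LNCaP:C42 as circles and 22Rv1 as squares, filled where called, with a black bar at each list's median. The replication list has the lowest median in LNCaP:C42 (−0.61) and lies above 0 in 22Rv1 (0.23).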

How the data were processed

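Total RNA of 24 cell line samples was sequenced. Per the file headers and the submitters' processing notes, reads were trimmed by the authors (Trim Galore, cutadapt) and aligned (STAR, GRCh38), and gene counts were made by featureCounts 1.5.0-p1 from the Ensembl 83 annotation without regard to strand. The deposited values are raw counts per gene, with no normalisation. No unassigned row is in the tables and 0 columns belonged to other series. Fragments that overlap the exons of more than 1 gene were not counted.

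Groups were taken from the sample titles. Counts were tested with edgeR 4.0.16 (R 4.3.3) by the quasi-likelihood F test with TMM scaling, after filterByExpr (minimum count 10, minimum total 15), on the 12 libraries of each line, or all 24 for comparisons of the lines, with Benjamini-Hochberg adjustment over all genes tested. Pairwise comparisons were called at an adjusted p under 0.05 and 1.5-fold, and interactions and differences between responses at an adjusted p under 0.05. SEs were derived from the F statistics. On simulated counts with 200 genes changed by 1 on the log2 scale, the test recovered 82.5% of them in LNCaP:C42 (16435 genes), 93% in 22Rv1 (17865 genes) and 70% for the difference between the lines (19437 genes). Of the genes called there, 5.71%, 2.62% and 6.04% in the same order were not among the 200. Among the genes called for R1881 in LNCaP:C42 siSCR cells, only BARD1 (−1.09) changed by more than 1. Recovery of smaller changes was not tested.

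The 36 genes and the other lists were chosen with earlier results of these data known, and in each list of related genes up to 3 called genes of largest change in LNCaP:C42 siSCR cells were named. Per-library values were given for up to 3 called genes of largest change within each role for R1881, and for the 4 of largest change in each direction between the lines with vehicle. Those of BRCA1 and BRCA2 with R1881, and all others, were chosen after their values were seen. Alternatives were DESeq2 1.42.0, RLE size factors, library size alone, other low-count filters and thresholds, a replicate block, only the libraries compared, and each library left out. Sequences and motifs came from RefSeq (GRCh38.p14), and gene coordinates and lengths from the count tables. Python 3.11.15, numpy 2.4.6, pandas 2.3.3, scipy 1.17.1 and matplotlib 3.10.9 were used. Some genes are not reported here.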

Additional observations from a re-analysis of the deposited data

Results flagged for a closer look

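The response to R1881 in siSCR cells differed between 22Rv1 and LNCaP:C42, by edgeR's test of the difference itself at an adjusted p under 0.05, for 18 of the 36 genes. The difference of the log2 fold changes (22Rv1 minus LNCaP:C42) was BARD1 1.30, XRCC2 1.30, BRCA1 1.27, EXO1 1.00, BRCA2 0.99, RAD54L 0.96, XRCC3 0.82, FANCA 0.78, CHEK1 0.76, FANCD2 0.76, BLM 0.72, XRCC4 0.67, RAD51C 0.60, PARP2 0.59, FANCG 0.54, PMS2 0.52, CHEK2 0.47 and PARP1 0.45. All 18 were higher in 22Rv1, where 7.78% of all genes passed in that direction. In LNCaP:C42 the 3 vehicle and 3 R1881 libraries include the 2 that stood apart from their groups, and without both 8 of the 18 passed. The share of all genes that passed in that fit is not given. No formal test for an outlying value within a group was run, since every group holds 3 libraries.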

How the results depend on the processing

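No called value of the 36 genes reversed its direction under any alternative run. Without the fold threshold the calls were 17 for R1881 in LNCaP:C42 siSCR cells, 7 in siMETTL3 cells, 13 and 7 in 22Rv1 siSCR and siMETTL3 cells, 6 for siMETTL3 in 22Rv1 with R1881, and 23 and 26 between the lines with vehicle and with R1881. Over all genes the R1881 counts were 4081 and 2728 of 16435 in LNCaP:C42 and 5903 and 5917 of 17865 in 22Rv1. For siMETTL3 in 22Rv1 with R1881 the count over all genes was 2897 of 17865. Between the lines 59.2 and 60.1% of all genes were called even with the fold threshold. At an adjusted p under 0.01, R1881 in LNCaP:C42 siMETTL3 cells gave 2, and 1280 of all 16435 genes. Leaving out single libraries gave 6 to 11 calls for R1881 in LNCaP:C42 siSCR cells, 2 to 9 in siMETTL3 cells, 0 to 4 for siMETTL3 in LNCaP:C42 with R1881, 0 to 4 for R1881 in 22Rv1 siSCR cells, 12 to 14 and 13 to 18 between the lines with vehicle and with R1881, and 11 to 18 for the difference in response. Without LNCaP:C42 siSCR vehicle replicate 3 and R1881 replicate 1 together, chosen after seeing the data, these were 7 for R1881 and 8 for the difference in response. The cause was not tested. Scaling by library size alone moved the median of all genes from −0.03 to −0.15 for R1881 in LNCaP:C42 siSCR cells and from 0.09 to 0.29 between the lines with R1881.

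Whether the replicate numbers pair the samples is not settled by the check that was made. It correlated the deviations of same-numbered libraries from their group means. The mean was −0.02 in LNCaP:C42 (range −0.34 to 0.19, 6 of 18 pairs over 0.1) and −0.01 in 22Rv1 (−0.23 to 0.15, 1 of 18). Libraries of different numbers were not compared, so a mean near 0 cannot exclude pairing. With the replicate block the calls went from 4 to 5 for R1881 in LNCaP:C42 siMETTL3 cells and from 18 to 21 for the difference in response, and stayed at 10 for R1881 in LNCaP:C42 siSCR cells. For siMETTL3 in LNCaP:C42 with R1881 the calls over all genes went from 115 to 39 with the block.

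The fall of METTL3 in LNCaP:C42 with vehicle (−0.61) was past both thresholds at the chosen settings and not at an adjusted p under 0.01 (0.0127) or with only the 6 libraries compared (−0.61, adjusted p = 0.0540), and ranged from −0.66 to −0.55 with single libraries left out, the call being lost without siSCR vehicle replicate 1 or 3 or siMETTL3 vehicle replicate 2 or 3. With R1881 (−0.57) it was not called at the chosen settings, was called without the fold threshold (−0.57) and without siSCR R1881 replicate 1 (−0.65, adjusted p = 0.00791), and ranged from −0.65 to −0.52 with single libraries left out.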

Other observations

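Another 2 lists were followed beside the repair genes in LNCaP:C42 siSCR cells. Of 17 mitosis genes 6 were called lower with R1881 (median −0.40), led by the kinase AURKB (−0.88), the transcription factor FOXM1 (−0.73) and the kinase PLK1 (−0.64), and 4 were called without the siSCR R1881 replicate 1. With all libraries 7.72% of all genes were called lower. In 22Rv1 siSCR cells none of the 17 was called by edgeR or DESeq2 (median −0.14). In edgeR 7 of the 17 were at an unadjusted p under 0.05, as were 7617 of all 17865 genes. The difference between the lines passed for 3 of the 17, CCNB1, AURKB and AURKA, CCNB1 and AURKA being named after their values were seen. The replication list differed between the lines in 22 of 26 genes, and 16.8% of all genes did.

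Of 18 p53 target genes 5 were called in LNCaP:C42 siSCR cells, 1 higher and 4 lower (median −0.03), where 15.1% of all genes were called. GDF15, a secreted stress cytokine, rose (2.62 ± 0.34), and the kinase PLK3 (−0.79 ± 0.16) and the death receptor FAS (−0.79 ± 0.24) fell. In 22Rv1 siSCR cells 2 were called, GDF15 (0.69) and, named after its value was seen, PLK2 (−1.89), where 13.8% of all genes were called. Of the 18 estimates 10 were below 0 in LNCaP:C42 and 7 in 22Rv1.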
